A study of Mus musculus with 31 samples.

Results

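The mitochondrial carriers of the Slc25 family were followed in whole brain over 31 BXD strains of mice. They were taken as the probes whose platform annotation gave a single gene symbol made of Slc25a and a number. This gave 36 probes for 36 genes, 1 probe a gene, among 15096 named genes and 21262 features in all. The BXD strains are recombinant inbred lines from C57BL/6J and DBA/2J, so at each locus a strain is fixed for the allele of 1 or the other parent. Each strain was represented by 1 pool of RNA from 3 males aged 8 weeks, labelled with Alexa Fluor 647 and hybridised on a 2-colour glass array against whole-brain RNA of C57BL/6J males of the same age, labelled with Alexa Fluor 555. The strains were BXD1 to BXD32, of which 24 were measured, and BXD33 to BXD42, a set bred later from the same cross, of which 7 were measured. No array was repeated and no dyes were swapped, so a difference between strains includes the error of a single array, and a mean log ratio includes any difference between the dyes. By their labels the samples differ by strain alone, and every array shared the kind of reference.

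Carriers of this family sit in the inner membrane of the mitochondrion and exchange or import the small molecules that the matrix needs. The ADP/ATP carriers bring ADP in and send ATP out, the phosphate carrier brings in the phosphate that ATP synthase uses, and others move citrate, amino acids, nucleotides, cofactors, acylcarnitines and iron. In brain the family is known for supplying ATP at synapses and for the malate-aspartate shuttle, which carries the reducing power of cytosolic NADH to the respiratory chain.

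Values are log ratios, taken as log2 with the strain over C57BL/6J, which the labels imply and do not state. A positive value is therefore a higher signal in the strain channel, under that reading. A log ratio gives no level, so carriers were not ranked by abundance, and the labelled tissue could not be checked against marker levels. The 31 columns held identical sorted values, with a median of 0.01, so they had been quantile normalised to each other. Without the carriers, the first principal component held 29.1% and the second 12.1% of the variance over arrays. The largest gap on the first component set 7 arrays apart (BXD6, 8, 20, 23, 28, 36 and 38), and that on the second set another 8 apart (BXD15, 22, 27, 33, 34, 39, 40 and 42), which left 16 core arrays. The labels name no batch. All 7 later strains lay outside the core, 2 of them among the 7 arrays and 5 among the 8. Deviations below are from the mean of the array group.

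Most carriers had a mean log ratio other than 0, in both directions and by small amounts. The mean over the 31 strains was positive for 10 carriers and negative for 18, and 8 did not pass the test (limma, moderated test against 0, Benjamini-Hochberg adjusted p over all features under 0.05). The share called, 28 of 36 or 77.8%, stood beside 76.1% of all features. Positive calls were made for 42.1% and negative calls for 33.9% of all features. The median of the 36 means was −0.08, against 0.04 for all features. Against a change of 1.2-fold, 10 of 36 carriers or 27.8% passed, beside 27.9% of features. No carrier had the same sign on every array, a pattern that 10.2% of features showed. The spread of a carrier over strains was like that of the array, with a median SD of 0.28 for carriers and for all features, and after removal of array group means 0.24 and 0.22.

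**Figure D1:**
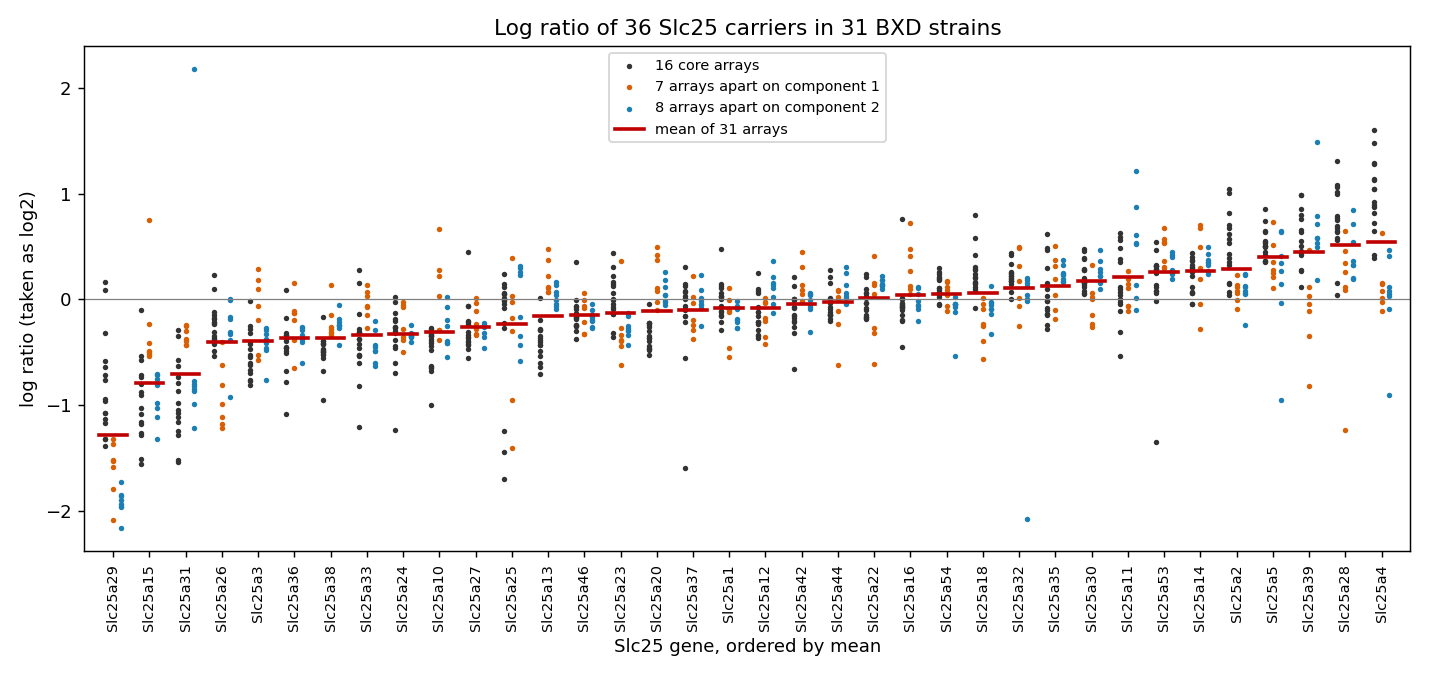
Log ratio (taken as log2, vertical axis) of each of the 36 Slc25 genes (horizontal axis, ordered by mean) in 31 BXD strains, 1 point a strain, with colours for the 3 array groups and a red bar for the mean. Means run from −1.28 for Slc25a29 to 0.54 for Slc25a4, and single points far from the rest are seen for Slc25a31, Slc25a32, Slc25a37 and Slc25a53.

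The nucleotide and phosphate carriers held the highest mean of the family and also 7 of its 18 negative ones. Of 10 members, 2 were positive, 7 negative and 1 was not called. Slc25a4 encodes Ant1, the ADP/ATP carrier of heart, muscle and brain. Its log ratio ran from −0.91 in BXD33 through a median of 0.47 to 1.60 in BXD2, and it was above 0 in 27 strains. The mean was 0.54 ± 0.10 (SE, n = 31, limma adjusted p = 9.09e-06). Slc25a5 encodes Ant2, the widely expressed ADP/ATP carrier, a protein closely similar to Ant1. It ran from −0.95 in BXD22 through 0.45 to 0.85 in BXD5, averaging 0.40 ± 0.06 (SE, n = 31, limma adjusted p = 1.13e-07). BXD22 stood alone: the next lowest strain, BXD39, was at −0.03, and 29 of 31 strains were above 0.

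Slc25a31 encodes Ant4, the ADP/ATP carrier of testis. It went the other way, from −1.54 in BXD32 through −0.80 to 2.18 in BXD27, averaging −0.70 ± 0.12 (SE, n = 31, limma adjusted p = 1.09e-06). BXD27 was the single strain above 0, and the other 30 lay between −1.54 and −0.24. Slc25a3, the phosphate carrier, ran from −0.81 in BXD16 through −0.42 to 0.29 in BXD28. It was below 0 in 28 strains, averaging −0.40 ± 0.05 (SE, n = 31, limma adjusted p = 1.33e-08). The 3 strains above 0, BXD6, BXD23 and BXD28, were all among the 7 arrays.

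The calcium-regulated ATP-Mg/phosphate carriers exchange the matrix pool of adenine nucleotides with the cytosol. Slc25a24 had a mean of −0.33 and Slc25a23 of −0.13, both called, while Slc25a54, a relative, was at 0.05 and was not called (adjusted p = 0.136). Slc25a25 was far below 0 in some strains. By deviation from array group means there was little gap, with BXD8 at −0.61 and BXD15 at −0.53. By log ratio, with a cut set after the values were seen, Slc25a25 lay between −1.70 and −0.95 in 5 strains (BXD5, BXD16, BXD28, BXD12 and BXD8). It lay between −0.59 and 0.39 in the other 26, with a median of −0.02 over all 31. Its mean of −0.23 ± 0.10 (SE, n = 31, adjusted p = 0.0278) rested on the low strains: without BXD5 it was −0.18 (adjusted p = 0.0537), and it was also not called without BXD12, BXD16 or BXD28. The pyrimidine nucleotide carriers Slc25a33 and Slc25a36, which bring in building blocks for mitochondrial RNA and DNA, had means of −0.33 and −0.37.

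The uncoupling-type carriers were split. Slc25a14, also named Ucp5, had a mean of 0.27 and Slc25a30, also named Kmcp1, of 0.18, whereas Slc25a27, or Ucp4, had −0.26. All 3 passed the test, and each kept its sign in at least 27 of 31 strains. The family members with other names showed the same mixture: Ucp1 was at 0.23, Mtch1 at 0.18, Mtch2 at 0.19 and Ucp3 at −0.51, all 4 called. Ucp1, which makes heat in brown fat, carried a log ratio above 0 in 30 of 31 brain pools.

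Among the carboxylate carriers, Slc25a11, the oxoglutarate carrier of the malate-aspartate shuttle, was at 0.21, from −0.54 in BXD29 to 1.21 in BXD40. Slc25a10, the dicarboxylate carrier, was at −0.31, and Slc25a1, the citrate carrier that feeds fatty acid synthesis, at −0.08. The call for Slc25a1 was lost in 5 of the 31 fits that left out 1 strain, without BXD1, BXD8, BXD23, BXD39 or BXD40, with adjusted p-values from 0.0528 to 0.0639.

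The 2 lowest means of the family were those of amino acid carriers, Slc25a29 and Slc25a15. As a group they were not the lowest, with a median of −0.08 against −0.28 for the nucleotide and phosphate carriers. Of 9 members, 1 was positive, 5 were negative and 3 were not called. Slc25a29, a carrier of basic amino acids, ran from −2.17 in BXD39 through −1.32 to 0.16 in BXD32, averaging −1.28 ± 0.11 (SE, n = 31, limma adjusted p = 9.42e-13). Only BXD11 and BXD32 were above 0 on its probe. Slc25a15, the ornithine carrier of the urea cycle, ran from −1.56 in BXD29 through −0.80 to 0.76 in BXD36, averaging −0.79 ± 0.08 (SE, n = 31, limma adjusted p = 8.8e-11). BXD36 was the only strain above 0. The other ornithine carrier, Slc25a2, had a mean of 0.29 and was above 0 in 28 strains, so the 2 ornithine carriers were called in opposite directions.

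Slc25a38, which brings in glycine for haem synthesis, was at −0.36 and below 0 in 30 strains. The aspartate-glutamate carriers of the malate-aspartate shuttle were negative, at −0.08 for Slc25a12, the form of brain and muscle, and −0.15 for Slc25a13, the form of liver. The call for Slc25a12 was lost in 16 of the 31 fits without 1 strain, with adjusted p-values of at most 0.0743. With array groups weighted equally Slc25a13 was at −0.05 and was not called. The glutamate carriers Slc25a18, at 0.06, and Slc25a22, at 0.01, and the branched-chain amino acid carrier Slc25a44, at −0.02, were not called. Slc25a18 hid a difference between array groups, described below.

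Of the 8 carriers of cofactors, carnitine and iron, 2 were positive, 2 negative and 4 not called. Slc25a28, or mitoferrin 2, which imports iron, ran from −1.23 in BXD36 through 0.58 to 1.31 in BXD24. Its mean was 0.52 ± 0.08 (SE, n = 31, limma adjusted p = 6.21e-07), and BXD36 was the only strain below 0. Slc25a39, which serves glutathione uptake, ran from −0.82 in BXD36 through 0.50 to 1.49 in BXD15, averaging 0.45 ± 0.08 (SE, n = 31, limma adjusted p = 2.96e-06). BXD36 was thus the lowest strain for both. Slc25a26, the S-adenosylmethionine carrier that supplies methyl groups to the matrix, ran from −1.22 in BXD38 through −0.32 to 0.23 in BXD16, averaging −0.40 ± 0.07 (SE, n = 31, limma adjusted p = 1.31e-06). Its lowest 4 strains, BXD38, BXD23, BXD6 and BXD28, were all among the 7 arrays set apart by the first component.

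Slc25a20, the carnitine-acylcarnitine carrier through which fatty acids reach oxidation, had a mean of −0.11 (adjusted p = 0.0422), and its call was lost in 15 of the 31 fits without 1 strain and, at −0.02, with array groups weighted equally. Slc25a37, or mitoferrin 1, at −0.10, Slc25a42, the coenzyme A carrier, at −0.04, and Slc25a16, linked to coenzyme A uptake, at 0.04 were not called. Slc25a32, the folate and flavin carrier, was at 0.11 and not called over 31 strains (adjusted p = 0.196). That rested on BXD15, at −2.08: without it the mean was 0.18 (adjusted p = 8.36e-06). Of the remaining 3 members, Slc25a35 and Slc25a53, whose substrates are not settled, were at 0.13 and 0.26, and Slc25a46, a protein of the outer membrane that acts in mitochondrial dynamics, was at −0.15, all called.

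Negative means were more frequent at 1 row place of the table, for carriers and for other genes. In the deposited table, named genes with 1 probe whose row was the eighth in each run of 8 had a median mean of −0.48, with 119 positive and 1336 negative calls among 1678, against 0.08 at the other places. The 6 carriers at the eighth place (Slc25a29, Slc25a15, Slc25a3, Slc25a38, Slc25a24 and Slc25a13) were all negative, with a median of −0.38. Among them, Slc25a29, Slc25a15, Slc25a38 and Slc25a13 are amino acid carriers, and Slc25a12 was the only negative call of that group at another place. The 30 at other places had 10 positive and 12 negative calls and a median of −0.0041. The part of row place in these negative means was not tested.

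Slc25a4 differed most between the array groups among the carriers with a positive mean. In the 16 core arrays it ran from 0.39 through 0.98 to 1.60, in the 7 arrays from −0.10 through 0.08 to 0.63, and in the 8 arrays from −0.91 through 0.06 to 0.47. The ranges overlapped at their edges, and 65.9% of its variation over strains lay between array groups, beside a median of 29.4% for carriers and 33.8% for all features. The means were 0.98, 0.13 and 0.02, so the positive mean of Slc25a4 came mainly from the core arrays. The array groups were read from the data and carry no label, so no cause was tested.

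**Figure D2:**
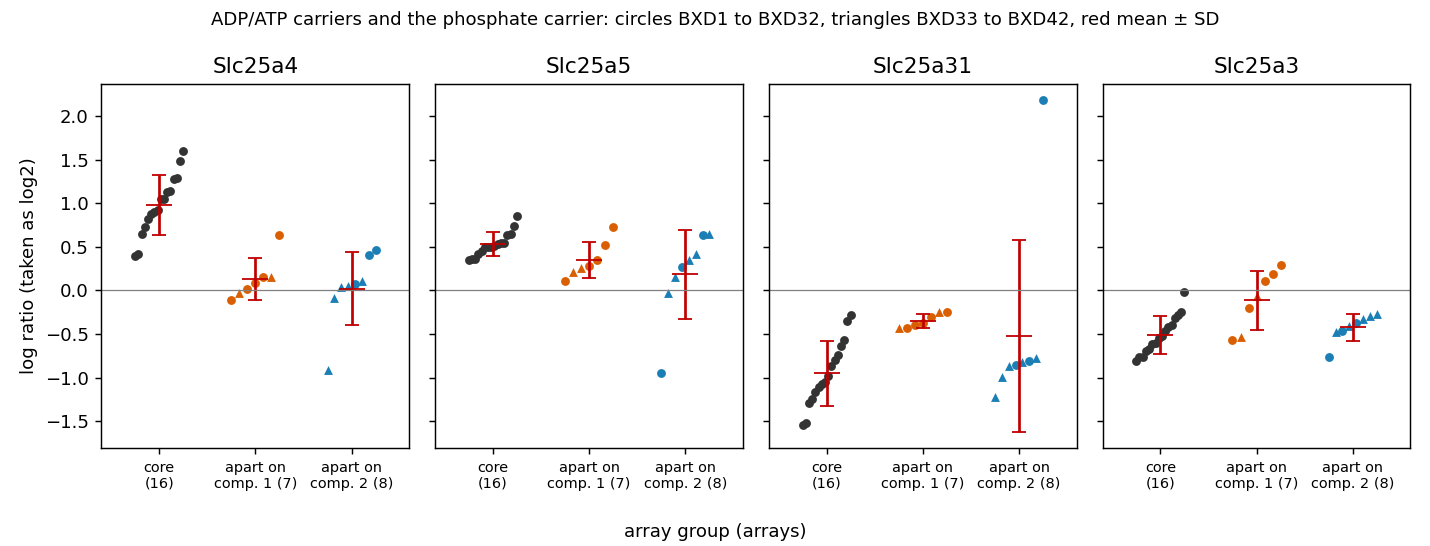
Log ratio (taken as log2) of the ADP/ATP carriers Slc25a4, Slc25a5 and Slc25a31 and of the phosphate carrier Slc25a3 in each strain, by array group, with the mean and SD in red, circles for BXD1 to BXD32 and triangles for BXD33 to BXD42. Slc25a4 had a mean of 0.98 in the core arrays against 0.13 and 0.02 in the others, BXD22 stood alone for Slc25a5 and BXD27 for Slc25a31.

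Slc25a29 was also lower outside the core. It had a mean of −0.82 in the core arrays, −1.60 in the 7 arrays and −1.92 in the 8, and the 8 arrays, from −2.17 to −1.73, did not overlap the core, from −1.39 to 0.16. It was the only carrier of 36 with no overlap between those groups in either direction, or 2.78%, beside 4.04% of features. Slc25a13 was the only carrier whose 7 arrays did not overlap the core in either direction, again 2.78%, beside 9.06% of features. Its 7 arrays, from 0.07 to 0.48, lay wholly above the core, from −0.70 to 0.01, as did those of 4.18% of features. Its partner Slc25a12 was highest in the other set: the 8 arrays averaged 0.10, the 7 arrays −0.17 and the core −0.14.

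Slc25a20 followed Slc25a13, with means of −0.34 in the core, 0.19 in the 7 arrays and 0.07 in the 8. Slc25a18 was opposite in sign, at 0.25 in the core, −0.22 and −0.08. These 2 carriers had 72.3% and 56.1% of their variation between array groups. At the other end, Slc25a46 had 0.90%, Slc25a37 2.55% and Slc25a25 4.04%, and Slc25a46 averaged −0.15, −0.14 and −0.17 in the 3 groups.

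Strains BXD33 to BXD42 were set against BXD1 to BXD32. Slc25a4 was the only carrier called. In the 24 earlier strains it ran from −0.10 through 0.77 to 1.60 and in the 7 later ones from −0.91 through 0.03 to 0.16. The ranges overlapped, and the difference of later minus earlier was −0.82 ± 0.20 (SE, limma adjusted p = 0.0458), a call that 0.480% of features shared. Leaving out each strain in turn, the difference stayed between −0.86 and −0.69, but the call was lost in 20 of 31 fits, with adjusted p-values from 0.0197 to 0.109. With array group as a covariate it was −0.31 ± 0.18 (adjusted p = 0.782), and 0% of features were called. Within the 7 arrays the 2 later strains averaged 0.07 and the 5 earlier 0.16, and within the 8 arrays the 5 later averaged −0.16 and the 3 earlier 0.32. Among those 5 later strains BXD33 was at −0.91 and the next lowest, BXD39, at −0.09, while the earlier BXD27 was at 0.08. Strain set and array group cannot be told apart for the core, which held no later strain.

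Several carriers had 1 strain far from all others. By deviations from the array group mean, 4 of 36 carriers, or 11.1%, had 1 array at least 1 log2 unit beyond the next, beside 4.01% of all features. These were Slc25a31, high in BXD27, Slc25a32, low in BXD15, and Slc25a53 and Slc25a37, both low in BXD12. The gaps were 2.04, 1.49, 1.31 and 1.04. Slc25a5, low in BXD22, followed with a gap of 0.90. Each is 1 pool on 1 array, so a property of the strain and an error of the array cannot be told apart.

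BXD5 had the highest or lowest deviation for 10 carriers, or 27.8%, and BXD32 for 8, or 22.2%. For all features these arrays were extreme in 18.8% and 15.4%, so they stood apart across the array. By deviation, BXD5 was lowest for Slc25a10, Slc25a23, Slc25a25 and Slc25a27 and highest for Slc25a1, Slc25a3, Slc25a12, Slc25a13, Slc25a33 and Slc25a46. BXD32 was lowest for Slc25a24 and Slc25a38 and highest for Slc25a16, Slc25a27, Slc25a29, Slc25a35, Slc25a36 and Slc25a44. Without BXD5 and BXD32, the calls for Slc25a20, at −0.11, and Slc25a25, at −0.19, were lost and no mean changed sign.

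**Figure D3:**
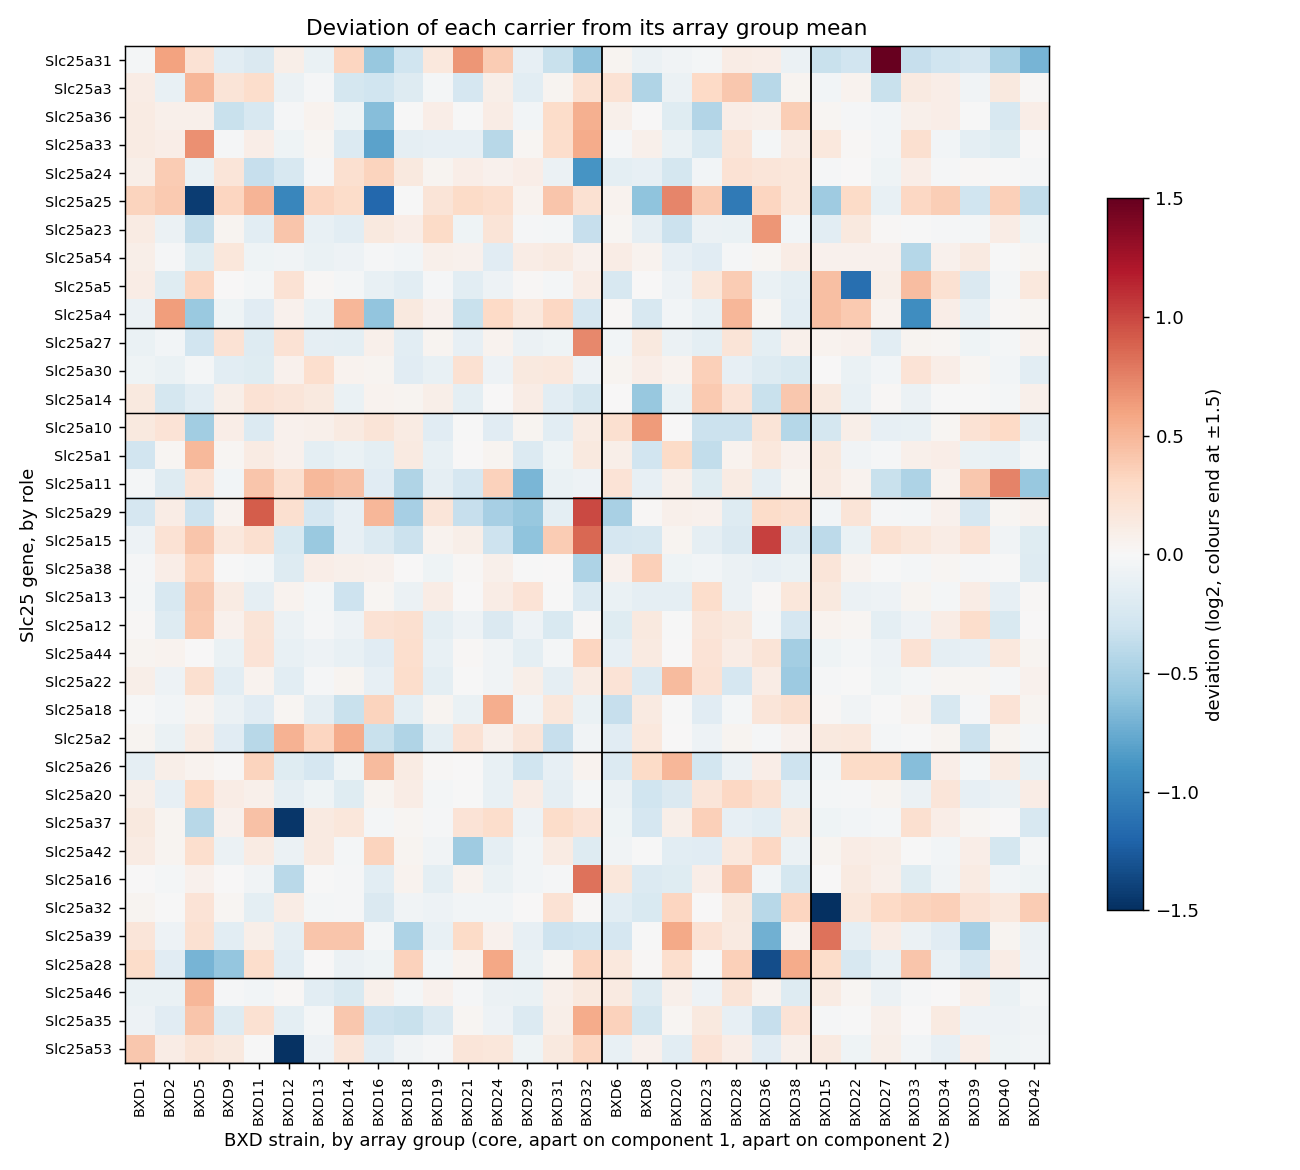
Deviation (log2) of each carrier from its array group mean, with genes in rows by role and strains in columns by array group, red above and blue below, colours ending at ±1.5. Most cells are pale. Dark single cells include BXD27 for Slc25a31, BXD15 for Slc25a32, BXD12 for Slc25a37 and Slc25a53, BXD36 for Slc25a28 and BXD22 for Slc25a5. Slc25a25 is dark in several strains.

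The carriers did not covary as a family. Over 31 strains, the mean correlation of deviations among the 630 pairs was −0.0012 (jackknife SE 0.0061), beside 0.00091 for pairs of all named genes, and 48.9% of pairs were positive. Within the core, the 7 and the 8 arrays it was 0.0072, 0.0017 and −0.0040. The pairs below were picked for their size among the 630, so they are described without a test. They share arrays and their errors.

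The pyrimidine nucleotide carriers Slc25a33 and Slc25a36 were the second most alike pair. Slc25a33 ran from −1.21 in BXD16 through −0.38 to 0.28 in BXD5, and Slc25a36 from −1.09 in BXD16 through −0.37 to 0.16 in BXD38. BXD16 was the lowest strain for both. Their deviations correlated at r = 0.66 and rho = 0.51 over 31 arrays, with r = 0.67 in the core, 0.84 in the 7 arrays and 0.58 in the 8. Without BXD16 r was 0.50, the lowest over fits without 1 strain, and without BXD16 and BXD5 it was 0.58. The r was thus positive in each array group with all its arrays, and lower over all arrays without BXD16. BXD32, also a core array, was high for both by deviation, at 0.56 for Slc25a33 and 0.53 for Slc25a36. Within the core, r was not computed without BXD16 or BXD32, so how far it rests on them was not tested. Slc25a33 and Slc25a36 were at the fifth and the third place of their runs, so they did not share a row place.

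The 250 bases before the RefSeq start of Slc25a33 and Slc25a36 are shown, with those of the ADP/ATP carriers Slc25a4 and Slc25a5. RefSeq promoters of GRCm38.p6 were found for 28 of the 36 carriers, in 37 windows. Capitals mark 3 motifs on either strand: the box CCAAT bound by the factor NF-Y, the E-box CACGTG, and GACGTCA, which is most of a cAMP response element. They were chosen after these sequences had been seen. The windows are chr4:149774268-149774517 on the minus strand for Slc25a33, chr9:97111042-97111291 on the minus strand for Slc25a36, chr8:46211063-46211312 on the minus strand for Slc25a4 and chrX:36795347-36795596 on the plus strand for Slc25a5, each written 5′ to 3′ in the sense of its gene.
Slc25a33: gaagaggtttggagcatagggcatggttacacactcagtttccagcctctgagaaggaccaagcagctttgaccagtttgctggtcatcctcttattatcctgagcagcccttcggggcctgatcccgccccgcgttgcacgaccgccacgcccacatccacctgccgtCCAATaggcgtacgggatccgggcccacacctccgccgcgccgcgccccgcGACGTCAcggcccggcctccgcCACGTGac
Slc25a36: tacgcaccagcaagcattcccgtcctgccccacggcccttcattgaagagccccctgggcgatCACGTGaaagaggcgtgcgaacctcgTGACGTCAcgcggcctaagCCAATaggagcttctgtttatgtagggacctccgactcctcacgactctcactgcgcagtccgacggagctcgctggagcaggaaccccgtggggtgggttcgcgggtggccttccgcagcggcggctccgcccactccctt
Slc25a4: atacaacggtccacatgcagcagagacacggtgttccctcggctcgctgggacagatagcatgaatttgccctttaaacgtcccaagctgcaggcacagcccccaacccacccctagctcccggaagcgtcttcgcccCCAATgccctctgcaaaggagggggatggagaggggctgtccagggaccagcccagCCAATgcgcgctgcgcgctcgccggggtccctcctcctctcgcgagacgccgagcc
Slc25a5: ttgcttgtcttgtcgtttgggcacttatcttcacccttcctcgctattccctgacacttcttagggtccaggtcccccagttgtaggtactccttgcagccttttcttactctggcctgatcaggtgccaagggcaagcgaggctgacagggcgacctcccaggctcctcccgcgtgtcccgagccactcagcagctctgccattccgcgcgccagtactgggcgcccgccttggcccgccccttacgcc

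Slc25a33 and Slc25a36 each held all 3 motifs, Slc25a4 held CCAAT alone and Slc25a5 none of them. None of the matches overlapped another motif of the 3. Among 32851 windows of 250 bases, 33.8% held CCAAT, 6.02% CACGTG and 2.78% GACGTCA on either strand, and 28 windows, or 0.0852%, held all 3. In the 37 windows of carriers the counts were 17, 8 and 4, and 2 held all 3. GGGCGG and TATAAG were scanned too and not marked. They were in 32.7% and 6.65% of all windows, and in 27 and 1 of the 37. Slc25a33, Slc25a36 and Slc25a5 held GGGCGG. The pair was picked for its r and the marked motifs after its sequences were seen, so these counts are descriptions. A match describes letters only, binding was not measured, and a link between motifs and covariation was not tested.

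Slc25a37 and Slc25a53 had the highest r of all pairs, 0.80, with rho = 0.43. It rested on BXD12, where they were at −1.59 and −1.34: without that strain r was 0.17. In the groups that do not hold BXD12, r was 0.41 in the 7 arrays and −0.18 in the 8. Slc25a25 and Slc25a37 correlated at r = 0.64 and rho = 0.68, and this did not rest on BXD12, since r without it was 0.70. It was 0.69 in the core, 0.58 in the 7 arrays and 0.63 in the 8. Slc25a1 and Slc25a46 had r = 0.64, which was 0.45 without BXD5, where both were highest.

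**Figure D4:**
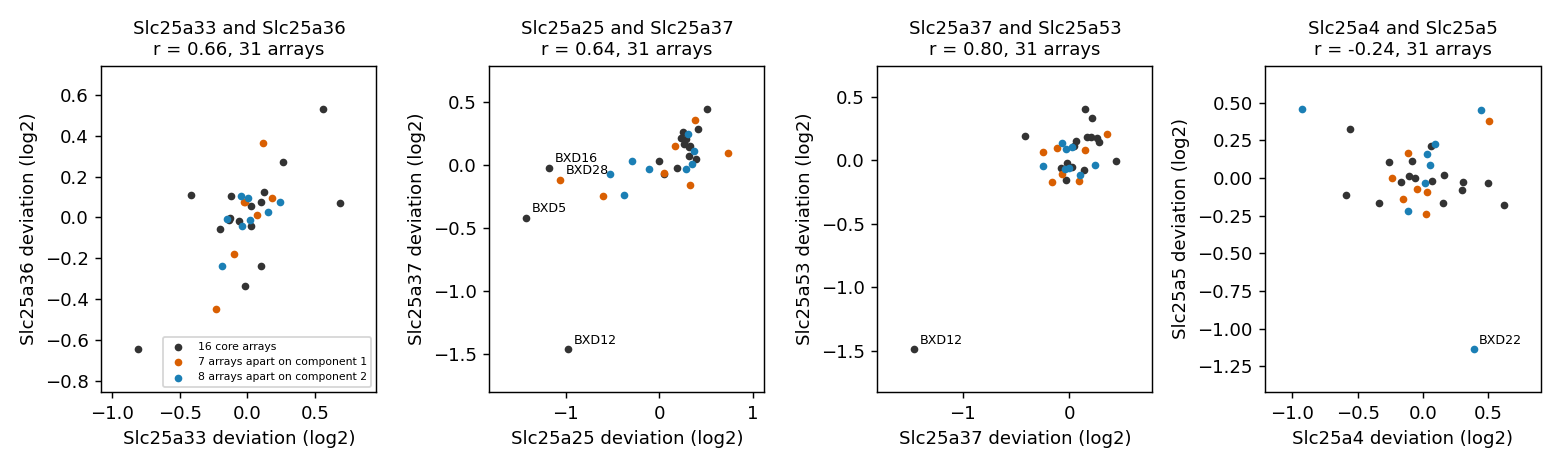
Deviations (log2) of 4 pairs of carriers from their array group means, 1 point a strain, coloured by array group, with strains beyond 1 log2 unit named. Slc25a33 and Slc25a36 rise together (r = 0.66), and Slc25a25 and Slc25a37 do so too (r = 0.64). BXD16 and BXD28 are low for Slc25a25, but at −0.02 and −0.12 for Slc25a37. Slc25a37 and Slc25a53 rest on BXD12 (r = 0.80), and Slc25a4 and Slc25a5 do not follow each other (r = −0.24).

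Negative pairs were of like size. Slc25a23, an ATP-Mg/phosphate carrier, and Slc25a35 had r = −0.61, which was −0.76 in the core and −0.04 in the 8 arrays. Slc25a10, the dicarboxylate carrier, had r = −0.57 with Slc25a13 and −0.57 with Slc25a14. The first was negative in all 3 array groups (−0.64, −0.64 and −0.43), the second was 0.04 in the core.

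Carriers with the same or related substrates were spread over the ranks of the 630 pairs. The pyrimidine nucleotide carriers Slc25a33 and Slc25a36 were at rank 2. Slc25a15 and Slc25a29, carriers of ornithine and of basic amino acids, were at r = 0.49. This was 0.58 in the core, 0.53 in the arrays apart on the first component and −0.36 in those apart on the second. Slc25a2 and Slc25a29 were at −0.19. Of the ATP-Mg/phosphate carriers, Slc25a23 and Slc25a24 were at 0.36, Slc25a23 and Slc25a25 at 0.04 and Slc25a24 and Slc25a25 at −0.08. The mitoferrins Slc25a28 and Slc25a37 were at r = 0.33, rank 48, and the aspartate-glutamate carriers Slc25a12 and Slc25a13 at 0.25, rank 79, which was −0.02 without BXD39 and BXD5. The glutamate carriers Slc25a18 and Slc25a22 were at −0.39, rank 607, and negative in each array group. The ornithine carriers Slc25a15 and Slc25a2 were at −0.28, rank 561.

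The ADP/ATP carriers Slc25a4 and Slc25a5 were not found to covary. Their deviations had r = −0.24 (permutation p = 0.244, two-sided) and rho = −0.07 (permutation p = 0.715) over 31 arrays, the only pair given a permutation test. Without BXD33 and BXD2, the arrays farthest from the median of Slc25a4, r was −0.04 (permutation p = 0.814). By array group r was −0.38 in the core, 0.62 in the 7 arrays and −0.40 in the 8, with permutation p-values of 0.150, 0.144 (exact) and 0.241 (exact). The values of rho were −0.31 (permutation p = 0.239), 0.11 (exact p = 0.840) and −0.05 (exact p = 0.935), so the sign in the 7 arrays was shared but not the size. Without array group in the calculation r turned to 0.23 (permutation p = 0.208).

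The carriers that were regressed on over the whole array were Slc25a4, Slc25a5 and Slc25a3, with array group in the fit. For each of them 0 of the other 35 carriers passed the test (limma, adjusted over all features). At an unadjusted p under 0.05 there were 0 carriers for Slc25a4, 1 for Slc25a5 and 8 for Slc25a3, or 0%, 2.86% and 22.9%, beside 5%, 5.87% and 15.7% of features. The 8 with Slc25a3 were led by Slc25a10 (r = −0.55, adjusted p = 0.102), Slc25a35 (r = 0.50, adjusted p = 0.138) and Slc25a46 (r = 0.47, adjusted p = 0.201).

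No feature passed the test of covariation with Slc25a4, 0% in each direction. Its highest r among the features with the strongest statistics was 0.67, with Cep170, a centrosomal protein, and its lowest −0.68, with Pltp, a phospholipid transfer protein, both with an adjusted p of 0.525. With Slc25a5, 0.183% of features were positive and 0.0611% negative. Its leading genes were Sh2b1, an adaptor of receptor tyrosine kinases (r = 0.81), Id4, an inhibitor of neural differentiation (r = 0.83), Grip1, a scaffold of glutamate receptors (r = 0.78), Mxd4 (r = 0.77) and Opn1mw (r = 0.75), and on the negative side 4930414F18Rik (r = −0.80), Plin3 (r = −0.76) and 9230117E06Rik (r = −0.75). These calls rested on BXD22: the 52 features called over all arrays became 1 without it, and that 1 was not among the 52.

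With Slc25a3, 0.103% of features were positive and 0.0329% negative, 29 in all. The leading ones were Ddx60 (r = 0.78), Cops6, a subunit of the COP9 signalosome (r = 0.78), Dusp26 (r = 0.76), Psmb1, a subunit of the proteasome (r = 0.74) and Rpn1 (r = 0.74), with Phactr3 (r = −0.72), Ptafr (r = −0.71) and Tmem67 (r = −0.71) at the other end. The number of features depended on single strains, with 1 without BXD28, 3 without BXD8, 7 without BXD23 and 136 without BXD27.

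Genes around the carriers were counted in the same way, where 42.1% of all features were called positive and 33.9% negative. The lists were not tested against these shares. The genes of ATP synthase, which uses what Slc25a3 and the ADP/ATP carriers bring, had 9 positive and 3 negative means among 15 measured, with a median of 0.19. Atp5g2, a copy of the membrane ring subunit, was at −0.88, and Atp5g1, another copy, at 0.43. Of 16 genes of the malate-aspartate shuttle and citric acid cycle, 2 were positive and 11 negative, with a median of −0.19, led by Dlst at −0.89 and Idh3a at −1.09, both at the eighth place of their runs. Among 9 outer membrane channels and nucleotide kinases 4 were positive and 4 negative, with Vdac2, also at the eighth place, at −0.36 and Hk1 at −0.31. The 10 other inner membrane carriers and channels had 2 in each direction, with Mcu, the calcium uniporter, at −0.58 and Letm1 at −0.42. The 10 genes of carrier import, the TIM and TOM machinery, had 2 positive and 4 negative, with Timm10 at 0.35 and Timm8b at −0.31. Timm8b was at the eighth place too, as were Atp5l, Sdha, Vdac1 and Tomm40 among the other negative calls of these lists.

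No gene of these lists passed the test of covariation with Slc25a4, Slc25a5 or Slc25a3 in either direction. Slc25a3 had a median r of 0.30 with the 15 ATP synthase genes, 14 of them above 0, where the median over all features was 0.0026. It was 0.37 in the core, 0.42 in the 7 arrays and 0.15 in the 8, and 0.21 without BXD5 and BXD32. Within array groups fewer of the 15 were above 0: 12 in the core, 9 in the 7 arrays and 11 in the 8. The highest r over all arrays was with Atpif1, the inhibitor of ATP synthase (r = 0.48, adjusted p = 0.146). With the genes of the malate-aspartate shuttle and citric acid cycle the median r was also 0.30, but −0.06 in the 8 arrays and 0.15 without BXD5 and BXD32. The medians of Slc25a4 with the same lists were −0.05 and −0.07, and those of Slc25a5 were 0.08 and 0.12. These genes share arrays, so the medians are descriptions.

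Markers of brain cell types were set against Slc25a3 in the same way. Its median r was 0.37 with 5 oligodendrocyte markers, 4 of them above 0, and was 0.11 in the core, 0.50 in the 7 arrays and 0.18 in the 8. With 7 neuronal markers it was 0.24, 4 of them above 0, and −0.08, 0.25 and −0.22 by group. With 6 astrocyte markers it was 0.05, and −0.18, −0.15 and −0.14 by group. The sign thus differed between array groups for neurons, and the astrocyte median was negative within each group. Mog, a myelin protein, was the only marker called with it (r = 0.68, limma adjusted p = 0.0421), whereas Cnp was at r = −0.32. Mog was among the 29 features called with Slc25a3, a number that fell to 1 without BXD28 and 3 without BXD8. The part of cell type makeup was not tested. In their means, 4 of 5 oligodendrocyte markers were positive and 0 negative, with Cnp at 0.42 and Mag at 0.19. Over all features 42.1% were called positive and 33.9% negative, and the marker lists were not tested against these shares. Of 7 neuronal markers 3 were positive and 3 negative, with Stmn2 at 0.25 and Gad2 at −0.60. Of 6 astrocyte markers 1 was positive and 2 negative, with Gfap at 0.22 and Gja1 at −0.99. Of 3 choroid plexus markers Folr1 was at 0.20 and Ttr at −0.43, and of 4 blood markers 3 were negative, with Slc4a1 at −0.22 and Bpgm at −0.27.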

How the data were processed

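The authors deposited 1 table of log ratios, taken as log2, of 23040 spots on 31 arrays, 1 array a strain. R 2.0.0 and limma are named in the submitters' processing notes. The background correction and spot filters were not given in the sources used here. Probes of a gene were averaged. Means and differences were tested with limma 3.58.1 in R 4.3.3 (lmFit and eBayes), with Benjamini-Hochberg adjustment over 21262 features at 0.05. Covariation was a regression of every feature on the carrier with array group in the fit. The correlation of Slc25a4 and Slc25a5 was tested by 1e+05 permutations within array groups, or exactly. On simulated data with 21262 features, the test against 0 recovered 80% of shifts of 0.25 and 99% of 0.5, and that of covariation with Slc25a4 30% at r = 0.5 and 100% at r = 0.8. The simulated noise was normal and independent between features, without array groups or outlying arrays. The real arrays differ in this, so these rates need not hold for them. Pools come from separate animals, but the spread over strains includes array error. Genes were named by a rule on their means, spread and calls. The members and lists were chosen with earlier results of these data known. Probe sequences were not used, so signal shared between similar carriers was not tested. Precision is limited by the number of arrays.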

Additional observations from a re-analysis of the deposited data

Results flagged for a closer look

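Within the 7 later strains, 9 of the 36 carriers, or 25%, had 1 strain whose gap to the nearest of the others was large against the range, where chance flags about 1 in 20 groups and the same rule picked out 14.7% of all features. In BXD36 these were Slc25a15 at 0.76, Slc25a23 at 0.37, Slc25a28 at −1.23 and Slc25a35 at −0.18. In BXD38 they were Slc25a22 at −0.61 and Slc25a44 at −0.62. In BXD33 they were Slc25a4 at −0.91 and Slc25a54 at −0.53, and in BXD39 Slc25a2 at −0.24. BXD36 and BXD38 are the 2 later strains among the 7 arrays apart on the first component, and 6 of the 9 lie in them. The part of array group in these flags was not tested.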

How the results depend on the processing

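Calls of a mean other than 0 numbered 25 to 29 of 36 when each strain was left out, and 10 against a change of 1.2-fold. With the 7 arrays of the first component left out, Slc25a16 turned to −0.036 and Slc25a44 to 0.0038, and with array groups weighted equally Slc25a18 turned to −0.016, none of them called over all arrays. Leaving out those 7 arrays ended the calls of Slc25a1 (−0.06), Slc25a12 (−0.06), Slc25a23 (−0.08) and Slc25a25 (−0.20) and added Slc25a18 (0.14) and Slc25a42 (−0.09), 26 in all. Equal weights ended those of Slc25a12 (−0.07), Slc25a13 (−0.05) and Slc25a20 (−0.02), which left 25. Robust moderation changed no call of a mean. Centring on the median, the first probe and single probes changed none either, but had little room to. Each carrier had 1 probe, and the columns, with identical sorted values, shared 1 median. The later against earlier call numbered 0 with array group as a covariate, within the 7 arrays and within the 8, and 0 to 1 without 1 strain. Carriers covarying with Slc25a4 and with Slc25a3 numbered 8 each with no array group, where 30.6% and 18.9% of features were called, and 0 for each of the 3 carriers without any 1 strain. The mean correlation among carriers was −0.0074 with no array group, −0.012 with 3 components removed and −0.0092 without BXD5 and BXD32, an alternative chosen after seeing the data, and −0.0050 to 0.00047 without 1 strain. Slc25a4 with Slc25a5 turned to 0.23 with no array group and was −0.35 to −0.09 without 1 strain. No paired analysis was possible because each strain was measured on 1 array and the strain sets share no number. Intensities were not used, so no carrier could be called near background.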
